A study of Mus musculus with 29 samples.

Results

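The genes described here fold, modify, move and destroy proteins of the endoplasmic reticulum (ER), or sense when that work falls behind. They are 37 genes listed by symbol, taken from the 24346 genes of the deposited expression table, and all 37 were found there. They fall into 6 classes: 9 chaperones of the Hspa5 system and secreted stress proteins, 7 lectin chaperones and folding isomerases, 7 translocation genes, 3 subunits of the oligosaccharyltransferase, 7 genes of ER-associated degradation, and 4 genes of stress sensing. Transcript levels were measured in the liver and hippocampus of male C57BL/6J mice that had become obese during 10 weeks of high-fat feeding. All mice then spent 4 weeks on 1 of 4 regimens. The HFD group stayed on the high-fat diet with free access, the HFD-IF group ate that diet with fasting every other day, the CC group was moved to control chow with free access, and the CC-IF group was moved to control chow with intermittent fasting. All groups therefore share the high-fat lead-in, and no group of mice without it was analysed here. The labels do not say whether tissue was collected on a fed or a fasted day. The liver libraries numbered 4 in each of HFD, CC and CC-IF and 2 in HFD-IF. Those of the hippocampus numbered 3 in CC-IF and 4 in each other regimen. The design names 32 samples, of which 29 were analysed, and describes replicates as biological.

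Secreted and membrane proteins enter the ER through the Sec61 channel, receive sugar chains from the oligosaccharyltransferase, and fold with the help of Hspa5 (BiP), Hsp90b1 (Grp94), the lectins calreticulin and calnexin, and disulfide isomerases. Proteins that fail to fold are carried back to the cytosol and degraded. The sensors Ern1 (Ire1), Eif2ak3 (Perk) and Atf6 respond to unfolded protein, and the factors they activate, among them spliced Xbp1 and cleaved Atf6, raise transcription of many of the genes listed here. The liver is a tissue of heavy secretion, since hepatocytes make most plasma proteins, and its ER load is known to vary with feeding.

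Binding sites for those factors are known from the promoters of such genes, so the promoter windows were searched for their published letters. The windows run from 250 bases before to 50 bases after the start of each gene in RefSeq on GRCm38.p6, and 31 of the 37 members had one. The ER stress element, CCAAT followed after any 9 bases by CCACG and read on both strands, was found in 9 of the 31 members (29.0%) and in 0.137% of the 27025 genes with a window. Those genes include the members, and the letters are known from promoters of such genes, so the shares only describe. The shorter ER stress element II, ATTGG and CCACG with any 1 base between them, was also read on both strands. It was found in 2 members (6.45%), Dnajb11 and Herpud1, against 0.0444% of genes. The element TGACGTGG, read the same way, was in 0 of the 31 member windows, which says only that these letters are not there, and in 0.714% of genes. The 9 members with the first element are shown because they span the folding and the degradation classes. Each match is written in the direction of the gene, and capitals mark the 5 fixed bases at either end. Where the letters read CGTGG first, the element lies on the opposite strand.
Calr: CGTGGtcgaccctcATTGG
Canx: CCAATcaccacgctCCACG
Creld2: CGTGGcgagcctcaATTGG
Derl3: CGTGGgacttccccATTGG
Dnajc3: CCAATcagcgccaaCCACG
Hsp90b1, upstream match: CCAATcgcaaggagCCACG
Hsp90b1, downstream match: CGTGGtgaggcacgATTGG
Hspa5: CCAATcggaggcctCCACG
Pdia6: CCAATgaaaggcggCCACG
Syvn1: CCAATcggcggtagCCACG

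The elements lay near the start site in each of the 9 genes. That of Syvn1 ended 26 bases before it, that of Hspa5 47 bases before it, and the upstream match of Hsp90b1 began 212 bases before it. For the chaperones Hspa5 and Hsp90b1, the 250 bases before the start are given with the elements in capitals, because they are the general chaperones of the ER lumen. The Hspa5 stretch is chr2:34771840-34772089 on the plus strand, and the Hsp90b1 stretch is chr10:86705445-86705694 on the minus strand. Start sites here are those of RefSeq and differ for both genes from the GENCODE gene coordinates given below. Part of each stretch, with the element of Hspa5, therefore lies inside those coordinates.
Hspa5: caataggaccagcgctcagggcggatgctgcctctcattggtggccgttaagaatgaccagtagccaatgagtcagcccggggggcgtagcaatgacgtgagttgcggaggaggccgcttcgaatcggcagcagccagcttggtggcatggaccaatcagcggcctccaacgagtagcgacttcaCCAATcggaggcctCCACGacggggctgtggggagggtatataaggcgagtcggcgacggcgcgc
Hsp90b1: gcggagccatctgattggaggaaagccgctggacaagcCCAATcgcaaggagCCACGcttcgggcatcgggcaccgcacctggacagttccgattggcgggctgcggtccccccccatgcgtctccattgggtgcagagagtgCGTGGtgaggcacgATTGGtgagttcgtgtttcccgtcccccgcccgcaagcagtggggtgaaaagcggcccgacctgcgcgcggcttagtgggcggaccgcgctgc

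Levels are FPKM, which divides fragment numbers by the length of the transcript and the size of the library, so depth is not stated directly. Low values, read as whole fragments, put liver libraries at about 9.88 to 16.8 M (mega) fragments and hippocampal ones at 12.4 to 38.7 M. The tissues matched their labels: the hepatocyte gene Apoa1 stood at 5464 to 9184 FPKM in liver and at most 0.504 in hippocampus, and the neuronal gene Snap25 was listed at 0 in all 14 livers and at 523 to 724 FPKM in hippocampus. Alb, the albumin gene, was listed at 0 in 8 of 14 livers, so an exact 0 in this table can be a failed estimate. These zeros were not spread evenly over the regimens. Every CC-IF liver had Alb at 0, the HFD-IF livers had it at 40063.7 and 29214.5 FPKM, and the remaining zeros were in HFD or CC livers. The reason was not tested. In bulk tissue, fewer cells of a type and less RNA per cell cannot be told apart. Changes are given as differences of log2(FPKM + 1) ± standard error, and a gene is called changed when its p-value, from limma and adjusted by Benjamini and Hochberg over all genes tested, is under 0.05.

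Fasting on chow was the comparison in which most of these genes changed. In liver, 33 of 37 members were lower in CC-IF than in CC and 0 were higher, by limma. Of all 11497 liver genes tested, 9.77% were called lower and 14.2% higher. Without adjustment, 35 members were lower and 0 higher at p under 0.05, where 4195 of 11497 genes passed, 1779 of them lower. The median member change was -0.89, against 0.02 for all genes tested. In 31 of 37 members every CC-IF library lay below every CC library, as it did in 11.4% of all genes. By class, the calls were 9 of 9 in the Hspa5 system (median change -2.12), 6 of 7 lectin chaperones and isomerases (-1.39), 7 of 7 translocation genes (-0.86), 2 of 3 oligosaccharyltransferase subunits (-1.05), 6 of 7 degradation genes (-0.70) and 3 of 4 stress sensing genes (-0.73). Members that were not called were P4hb, Rpn2, Herpud1 and Atf6.

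**Figure D1:**
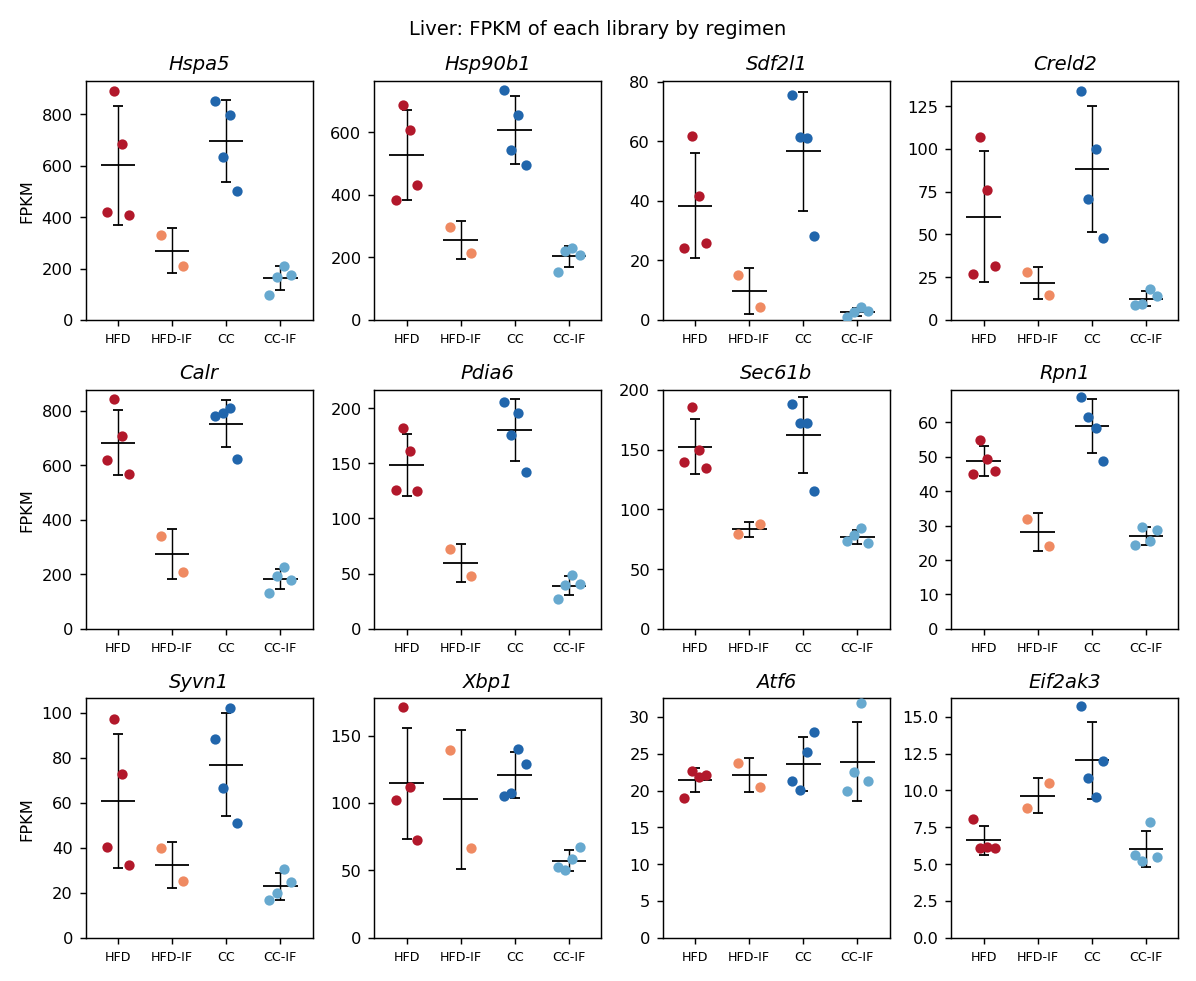
FPKM of 12 members in each liver library (points) for the 4 regimens, with the mean (long bar) and SD (whiskers) of each group; each panel has its own axis from 0. The CC-IF points lie below the CC points in every panel except that of Atf6.

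Hspa5 (chr2:34771970-34777547, plus strand, gene coordinates from GENCODE M21 on GRCm38), the central ER chaperone, stood at 853, 636, 798 and 499.8 FPKM in the CC livers and at 97.8, 167, 211 and 174 in the CC-IF livers. The lowest CC value was more than the highest CC-IF value, and the ratio of the means was 4.29. Its change was -2.12 ± 0.29 (adjusted p = 0.000341). Hsp90b1 (chr10:86690209-86705509, minus strand), the Hsp90 of the ER, stood at 736, 542, 655 and 494 FPKM in CC and at 152, 220.2, 231 and 208 in CC-IF. Its change was -1.58 ± 0.21 (adjusted p = 0.000229), and the groups did not overlap. As FPKM is scaled by length, Hspa5 and Hsp90b1 can be compared: in CC they had similar levels, 697 ± 160 and 607 ± 109 (SD, n = 4), and in CC-IF Hspa5 was at 162 ± 47.1 and Hsp90b1 at 203 ± 35.0.

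The largest change of any member was that of Sdf2l1 (chr16:17130138-17132383, minus strand), a partner of Hspa5 complexes in the ER lumen. It stood at 75.5, 61.6, 61.1 and 28.3 FPKM in CC and at 0.962, 2.62, 4.34 and 2.88 in CC-IF, a ratio of means of 20.96. The change was -3.96 ± 0.43 (adjusted p = 7.29e-05). Creld2 (chr15:88819646-88826683, plus strand), an ER-resident and secreted stress protein, stood at 134, 70.9, 100.2 and 48.2 FPKM in CC and at 8.602, 9.21, 18.1 and 13.8 in CC-IF. The change was -2.69 ± 0.44 (adjusted p = 0.000953). All CC values of both genes were above all CC-IF values. Manf, another secreted stress protein, fell by 2.68 on the log2 scale, and Hyou1, a large Hsp70-like nucleotide exchange factor for Hspa5, by 2.303. The co-chaperones were more modest: Dnajb11 fell by 1.62, Dnajc3 by 0.89 and Dnajb9 by 0.86. Dnajb9 was the only gene of the class whose groups overlapped, with 26.0, 33.3, 55.7 and 55.6 FPKM in CC-IF against 105, 80.6, 69.8 and 52.3 in CC.

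Calr (chr8:84841850-84846934, minus strand) encodes calreticulin, the soluble lectin that holds newly made glycoproteins. It stood at 780, 793, 812 and 624 FPKM in CC and at 133, 193, 225 and 180.0 in CC-IF. The groups were far apart and the change was -2.05 ± 0.19 (adjusted p = 2.45e-05). A pseudogene of Calr is annotated in GENCODE, and how the counting split reads between them is not given in the sources used here. Canx, the membrane-bound relative of Calr, fell by 0.70. Pdia6 (chr12:17266545-17284770, plus strand), a disulfide isomerase, stood at 206, 175, 196 and 142 FPKM in CC and at 27.3, 39.9, 48.6 and 40.8 in CC-IF. Its change was -2.19 ± 0.19 (adjusted p = 2.18e-05), the smallest p-value of the 37 members in this comparison. The isomerase Pdia4 fell by 1.71, Pdia3, which works with the lectins, by 1.39, and the prolyl isomerase Ppib by 0.85. P4hb, the most abundant isomerase in these livers, was at 676, 661, 762 and 571 FPKM in CC and at 423, 610.4, 581 and 455 in CC-IF. These groups overlapped, and the change of -0.38 ± 0.13 was not called (adjusted p = 0.0527). P4hb also serves collagen synthesis and lipid transfer as a shared subunit.

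All 7 translocation genes fell. Sec61g (chr11:16500530-16508484, minus strand), the small gamma subunit of the channel, stood at 109, 121, 120 and 71.4 FPKM in CC and at 28.3, 47.0, 42.1 and 50.1 in CC-IF. Sec61b (chr4:47474658-47483242, plus strand), the beta subunit, stood at 188, 172, 172 and 116 in CC and at 73.2, 78.4, 84.2 and 71.7 in CC-IF. Neither gene's groups overlapped, and the changes were -1.31 ± 0.20 and -1.05 ± 0.14 (adjusted p = 0.000575 and 0.000326). The pore-forming subunit Sec61a1 fell by 0.86. The 4 subunits of the translocon-associated complex, Ssr1 to Ssr4, fell by 0.86, 0.54, 0.64 and 0.38. Of the oligosaccharyltransferase, Ddost (chr4:138304730-138312628, plus strand) stood at 73.8, 61.4, 63.8 and 53.5 FPKM in CC and at 24.7, 31.8, 31.4 and 31.7 in CC-IF. Rpn1 (chr6:88084482-88105304, plus strand) stood at 67.3, 61.6, 58.3 and 48.7 in CC and at 24.3, 29.6, 25.6 and 28.6 in CC-IF. The groups were apart for both genes, and the changes were -1.05 ± 0.10 and -1.09 ± 0.12 (adjusted p = 3.41e-05 and 6.77e-05). Rpn2, another subunit of the complex, changed by -0.28 ± 0.10, which was not called (adjusted p = 0.0524).

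Within ER-associated degradation the changes ran from -3.30 to -0.01, the widest range of any class, with its lower end set by Derl3. Without Derl3 the lowest was that of Syvn1, at -1.68. In the Hspa5 system the changes ran from -3.96 to -0.86. Derl3 (chr10:75893413-75895941, plus strand), a derlin of the retrotranslocation machinery with low levels here, stood at 22.4, 8.06, 19.0 and 4.38 FPKM in CC and at 0.0714, 0.383 and 0.621 in 3 CC-IF libraries, and it was listed at 0 in the other. Its groups did not overlap. The change was -3.30 ± 0.59 (adjusted p = 0.00173), a value that depends on the 1 added to each FPKM. Syvn1 (chr19:6046576-6053712, plus strand), the ubiquitin ligase Hrd1, stood at 88.5, 66.4, 102 and 50.9 FPKM in CC and at 17.0, 19.8, 30.7 and 24.6 in CC-IF. The change was -1.68 ± 0.33 (adjusted p = 0.00285), again without overlap. Sel1l, the adaptor of Syvn1, fell by 0.70, Derl2 by 0.84, Edem1, which trims or recognises mannose on misfolded glycoproteins, by 0.48, and Derl1 by 0.23. Herpud1, which assembles the ligase complex, stood at 448, 347, 306 and 351 FPKM in CC and at 264, 353, 449.9 and 385 in CC-IF. The groups covered the same range, and the change was -0.01 with a 95% interval of -0.39 to 0.36.

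In the stress sensing class, Xbp1 (chr11:5520659-5525893, plus strand) is not itself a sensor, and its RNA is spliced by Ern1 to give the active factor. It stood at 105, 107, 140.3 and 129 FPKM in CC and at 52.9, 50.1, 58.2 and 67.6 in CC-IF. The groups were apart and the change was -1.06 ± 0.25 (adjusted p = 0.00855). The gene-level value does not separate spliced from unspliced Xbp1. Ern1 (chr11:106394650-106487852, minus strand) stood at 43.7, 45.2, 45.1 and 35.4 FPKM in CC and at 22.1, 29.2, 35.7 and 26.1 in CC-IF. The groups just overlapped, and the change was -0.58 ± 0.17 (adjusted p = 0.0289). Eif2ak3 (chr6:70844515-70905245, plus strand), the kinase that slows translation, stood at 15.7, 10.9, 9.58 and 12.0 FPKM in CC and at 5.60, 5.21, 7.83 and 5.49 in CC-IF. Its change was -0.88 ± 0.15 (adjusted p = 0.00128), without overlap. Atf6 (chr1:170704674-170867771, minus strand), the membrane-bound factor, stood at 21.3, 20.0, 25.2 and 28.0 FPKM in CC and at 20.0, 22.6, 31.8 and 21.3 in CC-IF. These values cover the same range, and the 95% interval of the change was -0.30 to 0.31.

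**Figure D2:**
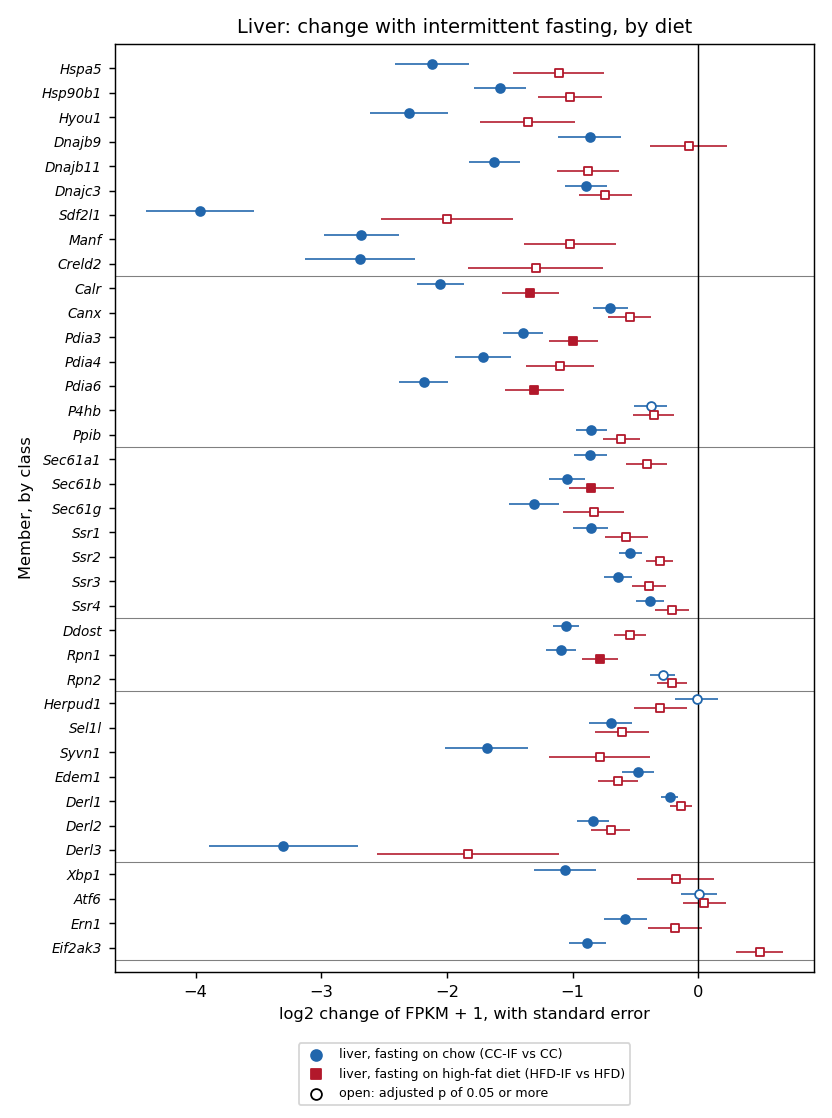
Change in log2(FPKM + 1) with fasting in liver for the 37 members, ordered by class, on chow (circles, CC-IF against CC) and on high-fat diet (squares, HFD-IF against HFD), with standard errors; filled symbols passed the adjusted threshold. On chow 33 symbols are filled and on high-fat diet 5, and all of these lie below 0.

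Of the 33 calls, 28 held with another pseudocount, filter, scaling or trend and with any 1 liver left out. The other 5, Ern1, Dnajb9, Ssr4, Edem1 and Derl1, were all lost without CC library 0 (libraries carry the index of their column, from 0), and Ern1 also without CC library 1 or 2 or CC-IF library 0, 1 or 3, at adjusted p up to 0.0846. Dnajb9, Ssr4 and Derl1 were lost too without CC library 1 or CC-IF library 0 or 1, Ssr4 and Edem1 without CC library 2, and Derl1 without CC-IF library 3. Summed marker levels of several cell types are given for these groups, without a test. Their ranges overlapped for macrophage, fibroblast and plasma cell markers and did not overlap for hepatocyte and pancreatic acinar markers. The summed FPKM of 5 macrophage markers was 72.5 to 130 in CC and 44.9 to 80.8 in CC-IF, that of 4 fibroblast markers 126.5 to 161.3 and 155 to 208, and that of 4 hepatocyte markers without Alb 17600 to 20610 and 14810 to 16260. The sum of 8 pancreatic acinar markers, from cells rich in ER that could stray into a dissection, was 5.79 to 13.2 in CC and 1.19 to 2.75 in CC-IF. Cela1 carried most of it, Pnlip and Amy2b were listed at 0 in every liver, and Prss2, Cpa1, Cpb1 and Ctrb1 were at most 0.277 FPKM. Of 6 plasma cell markers 3 are in the table, and their sum was 0.739 to 1.45 in CC and 0.459 to 0.778 in CC-IF, with Tnfrsf17 listed at 0 in every liver. The part of these cells in the result was not tested.

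The 9 members whose promoter windows hold the ER stress element printed above all fell with fasting on chow, by a median of 2.05 on the log2 scale and between 0.70 and 3.30. The 22 members with a window but without that element had a median change of -0.86, between -3.96 and -0.01, and 19 of them were called lower. These 22 include Dnajb11 and Herpud1, which hold the shorter element II. The ranges overlap, since Sdf2l1 lacks these letters in its window and changed most. The 9 members with the element all belong to the Hspa5 system, the lectin and isomerase class or the degradation class. None was a translocation, oligosaccharyltransferase or stress sensing gene, so the split also follows class. The comparison is a description of 31 genes, with no test. The 6 members without a window had a median change of -0.70, between -2.68 and 0.006, and 5 of them were called lower.

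Genes of the same pathways outside the 37 were also lower more often than higher. Of 109 such genes listed, 106 were tested in liver, and with fasting on chow 55 were lower and 4 higher, with a median change of -0.31, where 9.77% of all genes were lower, 14.2% higher and the median was 0.02. Among 21 folding genes 11 were lower, led by Uggt1, which checks glycoprotein folding (-0.82 ± 0.15), Ero1lb, which supplies disulfides (-1.58 ± 0.30), and Calu (-0.57 ± 0.11). Among 14 glycosylation genes 10 were lower, led by the catalytic subunit Stt3a (-0.80 ± 0.10), Tmem258 (-1.11 ± 0.14) and Magt1 (-0.78 ± 0.12). Among 16 translocation genes 9 were lower, led by Spcs3 (-0.85 ± 0.10) and Spcs2 (-1.02 ± 0.13) of the signal peptidase and by Tram1 (-0.96 ± 0.11). Among 14 degradation genes 6 were lower, led by Selk (-0.999 ± 0.14), the ATPase Vcp (-0.60 ± 0.09) and Ubxn4 (-0.65 ± 0.12). Among 22 export genes 13 were lower, led by the coat subunits Sec24d (-0.69 ± 0.10) and Sec23b (-1.07 ± 0.19) and the cargo receptor Tmed9 (-1.11 ± 0.19), and Sec23a was higher (0.39 ± 0.08). Among 19 stress regulators 6 were lower, led by Atf6b (-0.73 ± 0.13), Wfs1 (-0.81 ± 0.16) and Creb3l2 (-0.62 ± 0.13), and Ppp1r15b (0.48 ± 0.10) and Map3k5 (0.48 ± 0.16) were higher.

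Fasting on high-fat diet was measured with 2 HFD-IF livers against 4 HFD livers. By limma, 5 of 37 members were lower in HFD-IF and 0 higher, where 0.965% of all genes were called lower and 0.357% higher. Before adjustment 27 were lower and 1 was higher at p under 0.05, where 2043 of 11497 genes passed, 1155 of them lower. The sign was negative in 35 of 37 members and the median change was -0.64, against -0.01 for all genes. In 26 members both HFD-IF libraries lay below all HFD libraries, as in 12.8% of all genes, and in 1 member, Eif2ak3, both lay above, as in 9.4% of all genes. This comparison of means shares no library with that on chow, but the p-values of both rest on 1 estimate of the spread from all 4 regimens.

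The called members were 3 of the folding class, 1 of translocation and 1 of the oligosaccharyltransferase. Calr stood at 618, 843, 707 and 567 FPKM in HFD and at 339 and 210.2 in HFD-IF, a change of -1.34 ± 0.23 (adjusted p = 0.0197). Pdia6 stood at 125, 182, 161 and 125 in HFD and at 72.2 and 47.8 in HFD-IF, a change of -1.30 ± 0.24 (adjusted p = 0.0227). For both genes the 2 fasted livers were below the 4 with free access. Pdia3 stood at 196, 299.7, 248 and 196 in HFD and at 136 and 98.5 in HFD-IF, a change of -0.99 ± 0.20 (adjusted p = 0.0270). Sec61b stood at 139, 186, 149.9 and 134 in HFD and at 79.1 and 87.9 in HFD-IF (-0.85 ± 0.18, adjusted p = 0.0339), and Rpn1 at 45.1, 54.9, 49.4 and 45.8 and at 32.1 and 24.2 (-0.78 ± 0.14, adjusted p = 0.0227). Again neither fasted library reached the HFD range.

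Some members with large changes were not called. Hspa5 stood at 420, 892, 683 and 410.1 FPKM in HFD and at 331 and 208 in HFD-IF, and its change was -1.11 ± 0.36 (adjusted p = 0.14). Sdf2l1 stood at 24.2, 61.9, 41.6 and 25.8 in HFD and at 15.2 and 4.17 in HFD-IF, a change of -2.0 ± 0.53 (adjusted p = 0.0859). The HFD-IF values were the lowest for both. Xbp1 stood at 102, 171, 112 and 72.6 in HFD and at 139 and 66.3 in HFD-IF, so its groups overlapped, and the 95% interval was -0.84 to 0.48. Of the 106 pathway genes outside the list, 3 were lower (Cnpy3, Cnpy2 and Spcs3) and 0 higher, where 0.965% of all genes were lower and 0.357% higher.

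The 2 HFD-IF livers were not alike. Their median member deviation from the mean over all livers was -0.19 for library 0 and -0.55 for library 1. Library 1 also had a summed macrophage marker level of 240.7 FPKM, against 59.5 in library 0 and at most 130 in any other liver. Its summed fibroblast level was 445, against 131 in library 0. Cd68 was at 38.7 there and at most 12.8 in any other liver, and Col1a1 at 64.1 and at most 14.1. Both HFD-IF livers were below all HFD livers in the summed hepatocyte markers without Alb (12070 to 17790 against 18310 to 20340) and in the acinar markers (3.98 to 7.31 against 8.01 to 21.1). The part of these cells in the result was not tested. Without library 1, 0 members were called, with a median change of -0.47 and 32 of 37 negative. Without library 0, 17 were called, with a median of -0.82. The calls also moved with the HFD libraries, to 1 without library 2 and to 3 without library 1.

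**Figure D3:**
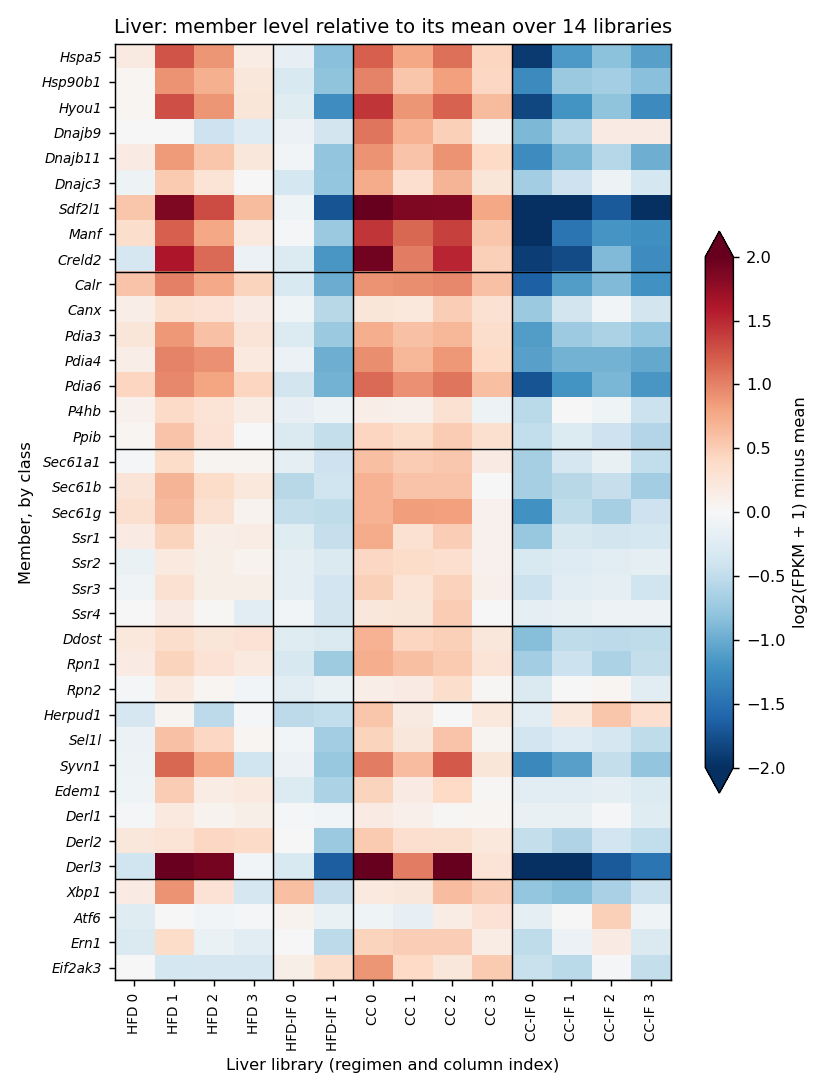
Log2(FPKM + 1) of each member (line) in each of the 14 liver libraries (column), minus its mean over them; red is above and blue below the mean, and the scale stops at 2 on either side. The CC libraries are red in nearly all members and the CC-IF libraries blue, while HFD libraries 1 and 2 are redder than 0 and 3.

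Whether the fasting change differed between the diets was tested as an interaction. By limma, 1 of 37 members passed, Eif2ak3, where 0.113% of all genes passed in that direction. At an unadjusted p under 0.05, 9 members had a more negative change on chow, where 5.97% of all genes did. The sign was negative in 35 of 37 members and the median -0.40. Eif2ak3 stood at 8.07, 6.11, 6.14 and 6.12 FPKM in HFD and at 8.81 and 10.5 in HFD-IF, so both fasted livers were above the fed ones, whereas on chow all fasted livers were below. The difference of the changes was -1.37 ± 0.24 (adjusted p = 0.0229), and it missed the threshold without HFD-IF library 1 (-1.26), CC-IF library 1 (-1.32) or CC-IF library 3 (-1.34). Hspa5 had a difference of -1.01 ± 0.47 with a 95% interval of -2.01 to 0.00, and Sdf2l1 one of -1.96 ± 0.68 with an interval of -3.43 to -0.49, neither called after adjustment.

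The fasted groups on either diet were also compared directly. Between CC-IF and HFD-IF livers 0 of 37 members were called in either direction by limma, and 0.591% of all genes were. At an unadjusted p under 0.05, 7 members were lower in CC-IF, where 7.57% of all genes were, and 1 was higher. The higher one, Herpud1, stood at 211 and 217 FPKM in HFD-IF, below the 4 CC-IF livers given above (0.73 ± 0.21, adjusted p = 0.115). The lower ones with the smallest p-values were Eif2ak3 (-0.61 ± 0.18, adjusted p = 0.126) and Manf (-1.17 ± 0.37, adjusted p = 0.141).

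The diet switch without fasting gave the reverse sign. It shares the CC livers with the fasting change on chow, where they enter with the opposite sign. High or low values in those livers thus push these comparisons in opposite directions, and the signs are not independent. The interaction uses the same livers, so the calls of Eif2ak3 in these comparisons are not independent either. Between CC and HFD livers 35 of 37 members had positive changes, with a median of 0.24 against -0.02 for all genes. By limma 1 was called higher and 0 lower, where 0.339% of all genes were called higher and 1.97% lower. At an unadjusted p under 0.05, 8 were higher and 0 lower, where 6.56% of all genes were higher. The called gene was Eif2ak3, with all CC livers above all HFD livers in the values given above, a ratio of means of 1.82 and a change of 0.76 ± 0.15 (adjusted p = 0.0224). That call was lost without HFD library 2, HFD library 3 or CC library 0, with changes of 0.74, 0.73 and 0.64. Dnajb9 stood at 49.7, 49.4, 37.0 and 41.1 FPKM in HFD, below all CC livers (0.75 ± 0.25, adjusted p = 0.126). The share of all genes with such a gap between these groups was not counted. For Hspa5 the 95% interval was -0.38 to 0.90, and for Calr -0.26 to 0.55.

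The combined change, CC-IF against HFD, shares its libraries with the comparisons above. By limma 30 of 37 members were lower and 0 higher, where 11.3% of all genes were called lower and 12.4% higher. Before adjustment 30 were lower and 1, Herpud1, was higher at p under 0.05, where 4236 of 11497 genes passed, 2057 of them lower. Hspa5 changed by -1.86 and Sdf2l1 by -3.40. P4hb, which was not called against CC, was called here at -0.49 ± 0.13 (adjusted p = 0.0176), though not without CC-IF library 3. Eif2ak3, Ern1 and Dnajb9, which fell against CC, had changes of -0.12 each against HFD and were not called.

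By mean level, CC was the highest of the 4 regimens in 34 of 37 members in liver, and CC-IF the lowest in 28. HFD-IF was the lowest in 8 and HFD in 1. The exceptions to the CC maximum were 2 genes highest in HFD and 1 highest in CC-IF. Within the HFD group the 4 livers split. Libraries 1 and 2 were both above libraries 0 and 3 in 27 of 37 members (73.0%), and in 21.3% of all genes tested. This split was named with the member values known, so the shares only describe. Derl3 shows it most, at 2.354, 16.5, 15.7 and 3.28 FPKM, and Creld2 stood at 27.1, 107, 76.1 and 31.4.

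In hippocampus 0 of 37 members were called in any of the 6 contrasts by limma. Of 12857 genes tested there, 0.00778% were called with fasting on chow and 0% in each of the other 5 contrasts. At an unadjusted p under 0.05, the fasting change on chow had 13 members lower and 1 higher, where 3.76% of all genes were lower. Fasting on high-fat diet had 4 lower and 0 higher, where 2.57% of all genes were lower. CC-IF against HFD had 10 lower and 0 higher, where 3.53% of all genes were lower, and it shares libraries with the others. The diet switch, CC-IF against HFD-IF and the interaction each had 0 at an unadjusted p under 0.05. With fasting on chow the sign was negative in 30 of 37 members, with a median of -0.15 against -0.02 for all genes, and in 6 members the CC-IF libraries lay below all CC libraries, as in 4.98% of all genes. In 2 members, Sec61g and Edem1, they lay above all CC libraries, as in 4.01% of all genes. The class medians were -0.40 for the Hspa5 system, -0.40 for lectins and isomerases, -0.01 for translocation, -0.10 for the oligosaccharyltransferase, -0.15 for degradation and -0.02 for stress sensing.

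Calr had the smallest p-value of the members in hippocampus. It stood at 152, 132, 157 and 159 FPKM in CC and at 93.7, 106 and 126 in CC-IF, without overlap, and changed by -0.47 ± 0.11 (unadjusted p = 0.000605, adjusted p = 0.333). On high-fat diet it stood at 133, 157, 171 and 138 in HFD and at 117, 125, 136 and 125 in HFD-IF, where the groups overlapped. Hsp90b1 stood at 87.9, 80.5, 78.8 and 94.2 in CC and at 51.1, 63.2 and 67.1 in CC-IF (-0.50 ± 0.12, adjusted p = 0.333). Pdia3 stood at 47.4, 40.9, 40.8 and 48.5 in CC and at 29.4, 35.2 and 35.8 in CC-IF (-0.40 ± 0.10, adjusted p = 0.361). Both were lower in each fasted library than in any fed one on chow.

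Hspa5 stood at 83.9, 59.1, 81.1 and 87.9 FPKM in the CC hippocampus and at 37.3, 51.6 and 71.5 in CC-IF, so CC library 1 lay inside the fasted range. The change was -0.57 ± 0.21 with a 95% interval of -1.01 to -0.13 (adjusted p = 0.593). On high-fat diet it stood at 61.5, 83.8, 91.7 and 69.0 in HFD and at 59.5, 66.9, 76.1 and 49.7 in HFD-IF, with overlap. Xbp1 stood at 23.8, 20.2, 28.2 and 26.1 in CC and at 17.6, 19.6 and 21.5 in CC-IF (-0.31 ± 0.13, adjusted p = 0.706). In HFD and HFD-IF it covered 19.1 to 27.0 and 20.1 to 27.7. Ppib had the smallest p-value for fasting on high-fat diet, at 28.5, 32.8, 29.9 and 30.2 in HFD and 26.7, 25.8, 17.9 and 25.7 in HFD-IF (-0.34 ± 0.10, adjusted p = 0.521), and all fasted libraries were below all fed ones. Edem1 was the member that was higher at an unadjusted p under 0.05 with fasting on chow (0.21 ± 0.09, adjusted p = 0.701). Of 103 pathway genes outside the list tested in hippocampus, 0 were called with fasting on either diet.

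**Figure D4:**
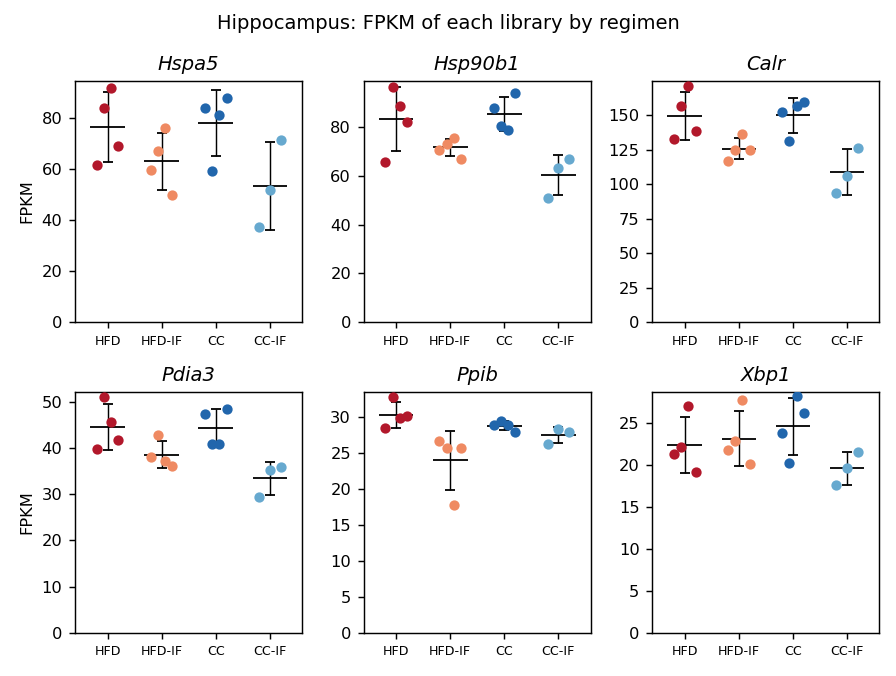
FPKM of 6 members in each hippocampal library (points) for the 4 regimens, with the mean (long bar) and SD (whiskers); each panel has its own axis from 0. The CC-IF points of Hsp90b1, Calr and Pdia3 lie below all CC points, while those of Hspa5, Ppib and Xbp1 overlap the CC points.

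The choroid plexus, a secretory epithelium beside the hippocampus, was present to different degrees. The summed FPKM of its 5 markers was 8.15 to 52.9 in CC, 7.76 to 31.0 in CC-IF, 10.3 to 51.0 in HFD and 6.397 to 16.3 in HFD-IF, and Ttr, which it makes in bulk, covered 7.48 to 1744 FPKM over the 15 libraries. The summed level of 5 markers of the meninges, the membranes over the brain, was 355 to 575 in HFD, above the 214 to 309 of HFD-IF, the 206 to 291 of CC and the 254 to 308 of CC-IF. The part of these cells in the member values was not tested.

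Whether the changes differed between the tissues was tested in 1 model over both, with libraries treated as independent because the labels do not tie tissues to mice. For fasting on chow, 29 of 37 members had a more negative change in liver, where 4.96% of the 9939 genes tested in both did, and 0 a more positive one. Before adjustment these were 32 and 0 at p under 0.05, where 2649 of 9939 genes passed, 1016 of them more negative in liver. The differences reached -3.54 ± 0.59 for Sdf2l1 (adjusted p = 0.000218), -1.58 ± 0.22 for Calr (3.01e-05) and -1.55 ± 0.38 for Hspa5 (0.00633). All 9 members of the Hspa5 system and 6 of 7 translocation genes were among the 29. Xbp1 was not, at -0.75 ± 0.30 (adjusted p = 0.0919). For fasting on high-fat diet, 5 members had a more negative change in liver, where 1.16% of genes did: Calr, Derl2, Edem1, Pdia3 and Rpn1. That count was 0 without HFD-IF liver library 1 and 15 without library 0. For the diet switch, Eif2ak3 alone had a more positive change in liver (0.83 ± 0.16, adjusted p = 0.0107), where 0.181% of genes did, and without HFD liver library 1 the count was 2.

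**Figure D5:**
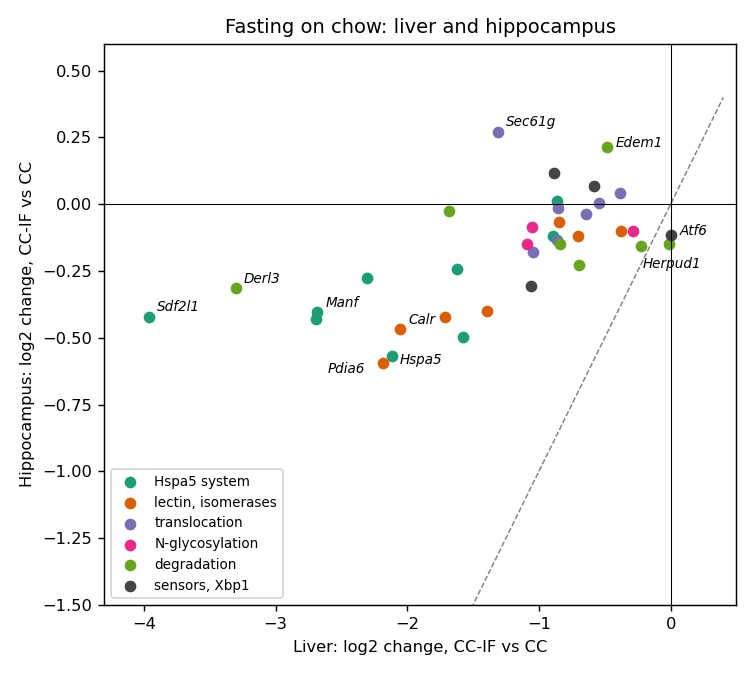
Change in log2(FPKM + 1) from CC to CC-IF for the 37 members in liver (horizontal axis) and hippocampus (vertical axis), coloured by class; the dashed line marks equal change, and the axes differ in scale. Liver changes reach -3.96 while hippocampal changes stay between -0.59 and 0.27.

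The members were expressed in both tissues, and more so in liver. The mean FPKM over all libraries was 456 in liver and 68.7 in hippocampus for Hspa5, and 502 and 135 for Calr. The liver to hippocampus ratio of means ran from 1.23 for Ssr1 and 1.54 for Eif2ak3 to 15.8 for Edem1, 19.6 for Herpud1 and 23.4 for P4hb. Xbp1 was 4.35 times and Ern1 11.5 times as high in liver. FPKM is relative to all RNA of its library, so these ratios compare shares of each tissue's RNA.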

How the data were processed

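The authors deposited 1 table of FPKM with 24346 genes and 29 libraries, made as strand-specific poly-A libraries per the labels' protocols. Per the submitters' processing notes, the build was GRCm38 (mm10) and the tools included TopHat2 2.1.1, Bowtie2 2.3.5.1, Trimmomatic 0.39 and FastQC 0.11.9. Which program made the FPKM, and whether it used strand, is not given in the sources used here. Exons of 7 members overlap those of another protein-coding gene (Manf, Pdia3, Pdia6, Ppib, Rpn2, Syvn1 and Derl2). Columns were tied to a tissue and regimen by name, and 0 were left without a group. Depth, known only approximately, limits low genes such as Derl3. No library repeated another of its group: over 40 pairs within groups, Pearson's r was 0.953 to 0.984 and at least 99.99% of values differed. Libraries of different groups were not compared in this way.

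Genes with a mean FPKM of at least 1 over the libraries of a tissue were tested with limma 3.58.1 (R 4.3.3) on log2(FPKM + 1), which understates changes of low genes. The 4 regimens entered 1 model per tissue with group as its term and an intensity trend, two-sided, adjusted by Benjamini and Hochberg at 0.05 over 11497 liver and 12857 hippocampal genes. The procedure was also run on simulated data with independent genes and the same spread in every group. That setting does not show how it handles genes that vary together or unlike libraries within a group. Plots used matplotlib 3.10.9, and tables used numpy 2.4.6 and pandas 2.3.3 under Python 3.11.15.

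The members and all lists were chosen with earlier results of these data known, so a list's direction is no independent evidence. Given library by library are Hspa5, Hsp90b1, Xbp1, Atf6, Ern1, Eif2ak3 and the 2 largest non-overlapping changes with fasting on chow in each other class, and in hippocampus Hspa5, Xbp1 and the 4 smallest p-values. Values of Dnajb9, P4hb, Herpud1 and the 5 members called on high-fat diet were added after they were seen. Other genes are named by smallest p, at most 3 a class, or because called in the other direction. The values of 1 such gene are not reported here. Promoter windows are RefSeq's, read for 31 members.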

Additional observations from a re-analysis of the deposited data

Results flagged for a closer look

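Single livers stood apart from the other 3 of their group in 4 cases. Ern1 was at 35.4 FPKM in CC library 3, below the others, and Eif2ak3 was at 8.07 in HFD library 0 and at 7.83 in CC-IF library 2, above the others. Ddost was at 24.7 in CC-IF library 0, below the others. In hippocampus, Ppib was at 17.9 FPKM in HFD-IF library 2, below the other 3. The rule compares a sample's gap with the range of its group in 66 groups of members given library by library, and chance picks out about 1 in 20 groups.

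Changes that differed between groups were of 2 kinds. The fasting change of Eif2ak3 in liver differed between the diets by -1.37 on the log2 scale. Between liver and hippocampus, the change differed for 29 members with fasting on chow, 5 with fasting on high-fat diet and 1 with the diet switch, each by the test of the difference itself.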

How the results depend on the processing

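Alternatives were a pseudocount of 0.1, no filter on low values, median-ratio scaling, no intensity trend, a fit of the 2 groups compared alone, and leaving out each library. With libraries left out in turn, the members called ranged from 28 to 35 for fasting on chow in liver and from 25 to 30 for CC-IF against HFD, and these counts stayed within 1.5 times under every alternative run. For fasting on high-fat diet the count in liver ranged from 0 to 17 and was 0 when those groups were fitted alone. It ranged from 0 to 1 for the diet switch and for the interaction in liver, and was 0 throughout for CC-IF against HFD-IF and for every hippocampal contrast. The tissue difference had 24 to 30 members for fasting on chow, 0 to 15 for fasting on high-fat diet and 1 to 2 for the diet switch. For fasting on high-fat diet it had 3 with the other pseudocount, 3 without the filter and 3 without the trend. The cause was not tested. Ern1 on chow missed the threshold without the filter (adjusted p = 0.0503). The sign of Atf6, near 0, turned to -0.0285 under median-ratio scaling, and ranged from -0.135 to 0.0883 with libraries left out. A lone HFD-IF library was assumed to vary like the other groups. Columns carry an index from 0 and the labels a number from 1, so the index is not known to name an animal, and pairing by it was tried after seeing the data. Over all genes tested, deviations from the group mean correlated between liver and hippocampus of the same regimen and index at -0.244 to 0.0961 in 13 pairs, 0 of them over 0.1. Between regimens of a tissue, 3 of 18 liver pairs and 8 of 21 hippocampal pairs were over 0.1. The own index gave the highest correlation in 2, 10 and 9 of the 13, 18 and 21 pairs. The 3 liver pairs over 0.1 were all of CC with CC-IF, at 0.1346 to 0.3351, while index 3 of these regimens gave 0.0004. In hippocampus the pairs of CC with CC-IF were at 0.1605 to 0.2776, and pairs of other regimens also passed 0.1. With the index as a replicate block, 33 members were called in liver for fasting on chow, 27 for CC-IF against HFD, 3 for fasting on high-fat diet and 0 for the diet switch and the interaction. The tissue difference then had 27 members for fasting on chow, 0 for fasting on high-fat diet and 0 for the diet switch, and no hippocampal call appeared.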
